A study of Mus musculus with 9 samples.

Results

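The 8 enzymes of arginine, creatine, polyamine and amino acid metabolism described here in mouse kidney were taken by gene name (Gatm, Ass1, Asl, Odc1, Agmat, Hpd, Kynu and Prodh2) from the deposited table. All 8 were found, among 55385 genes in all. RNA-seq of poly(A) RNA from the kidney, with 1 library per mouse, covered 3 groups of 3 male C57BL/6 mice (C57BL/6J in the study's text) aged 8 to 10 weeks. The study's text gives this age for the mice used to set up the model, and kidneys were taken when the study ended. Control mice were untreated, HN mice (hyperuricemic nephropathy) were fed adenine at 0.16 g/kg with potassium oxonate at 2.4 g/kg every other day over 4 weeks. PEC mice received the same feeding and pectolinarigenin, a plant flavonoid, by mouth each day over those 4 weeks. The PEC dose of 25 mg/kg is that of the study's text, since the sample labels give none, and the Control samples are titled HN mice although labelled control for disease state. The labels number the Control mice 2, 4 and 5, the HN mice 4, 8 and 12 and the PEC mice 1, 2 and 3.

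The kidney is a main site of arginine synthesis in the body: cells of the proximal tubule take up citrulline and turn it into arginine with the enzymes encoded by Ass1 and Asl. Arginine is then used for creatine, which starts with the kidney enzyme encoded by Gatm, or is turned into ornithine, the source of the polyamines. The proximal tubule also breaks down tyrosine, tryptophan and hydroxyproline.

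Total counts on genes were 75320528, 74965874 and 78459183 in the Control libraries, 74315544, 81069646 and 74212324 in the HN libraries and 74397038, 65583215 and 57714111 in the PEC libraries, in the order of the replicates given above. The libraries of the groups stood apart in several respects before any enzyme was considered. Transcripts of mitochondrial genes made up 14.2% ± 1.82 (SD, n = 3) of the counts in the Control libraries, 6.19% ± 0.164 in the HN libraries and 12.3% ± 1.77 in the PEC libraries. Ribosomal RNA loci took 0.296%, 1.72% and 0.302% of the counts in PEC 1, 2 and 3, and at most 0.00419% in each of the other 6 libraries. The labels give no batch, so that a difference in handling between the groups and the treatment itself cannot be told apart.

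Levels in each mouse are given as normalised counts, which are library-scaled counts (CPM) with trimmed mean of M-values (TMM) scaling, and levels between genes as the deposited FPKM, which accounts for gene length. In Control kidneys the order by mean FPKM was Ass1 with 612 ± 67.4 (SD, n = 3), Odc1 with 254.0 ± 138, Gatm with 224 ± 36.9, Asl with 27.6 ± 4.16, Hpd with 18.2 ± 7.05, Prodh2 with 11.5 ± 2.01, Agmat with 1.19 ± 0.20 and Kynu with 1.06 ± 0.667. Ass1 ranked 48 among the 21392 tested genes in Control, whereas Agmat and Kynu were low. The ranges of the 3 mice overlapped between Odc1 and Gatm, between Asl and Hpd, between Hpd and Prodh2 and between Agmat and Kynu. In HN kidneys Ass1 also led, with a mean FPKM of 189 ± 4.56, and Odc1 had 98.3 ± 17.5, Gatm 88.1 ± 4.06 and Asl 17.2 ± 0.222. In PEC kidneys Ass1 again led with 465.0 ± 131, and Odc1 had 78.8 ± 26.8, Gatm 68.9 ± 14.7 and Asl 25.8 ± 4.38. The 8 genes together took 0.352% ± 0.0626 of all counts in the Control libraries, 0.130% ± 0.00880 in the HN libraries and 0.203% ± 0.0488 in the PEC libraries.

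HN against Control asks how the model differs from the untreated kidney, PEC against HN what differs with the compound, and PEC against Control what still differs from the untreated kidney under it. These comparisons share mice pairwise, so their values are set side by side. A gene was called when edgeR's quasi-likelihood test, adjusted after Benjamini and Hochberg, gave a p of at most 0.05 over all 21392 tested genes and the fold change was at least 1.5 (0.585 on the log2 scale). All 8 enzymes passed the filter on low counts. In HN against Control 6 of the 8 were called lower and 0 higher by edgeR, where 14.6% of all tested genes were called lower and 17.5% higher. In PEC against HN 0 were called lower by edgeR and 4 higher, against a background of 15.1% and 13.2%. In PEC against Control 3 were called lower and 0 higher by edgeR, against 17.3% and 18.7% of all tested genes. These 3 counts of 0 were also 0 at an unadjusted p of at most 0.05 with the same fold threshold and with DESeq2, while limma on FPKM rescaled to a common sum called 1 in each case. Of all 15508 genes in that limma fit, 9273 were called higher in HN against Control, 7063 lower in PEC against HN and 4433 higher in PEC against Control. The median log2 change of the 8 enzymes was −1.86, 0.78 and −0.47 in these comparisons, and that of all tested genes lay within 0.05 of 0 in each. In bulk tissue, fewer cells of a type and less RNA per cell cannot be told apart, and this holds for every value here.

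**Figure D1:**
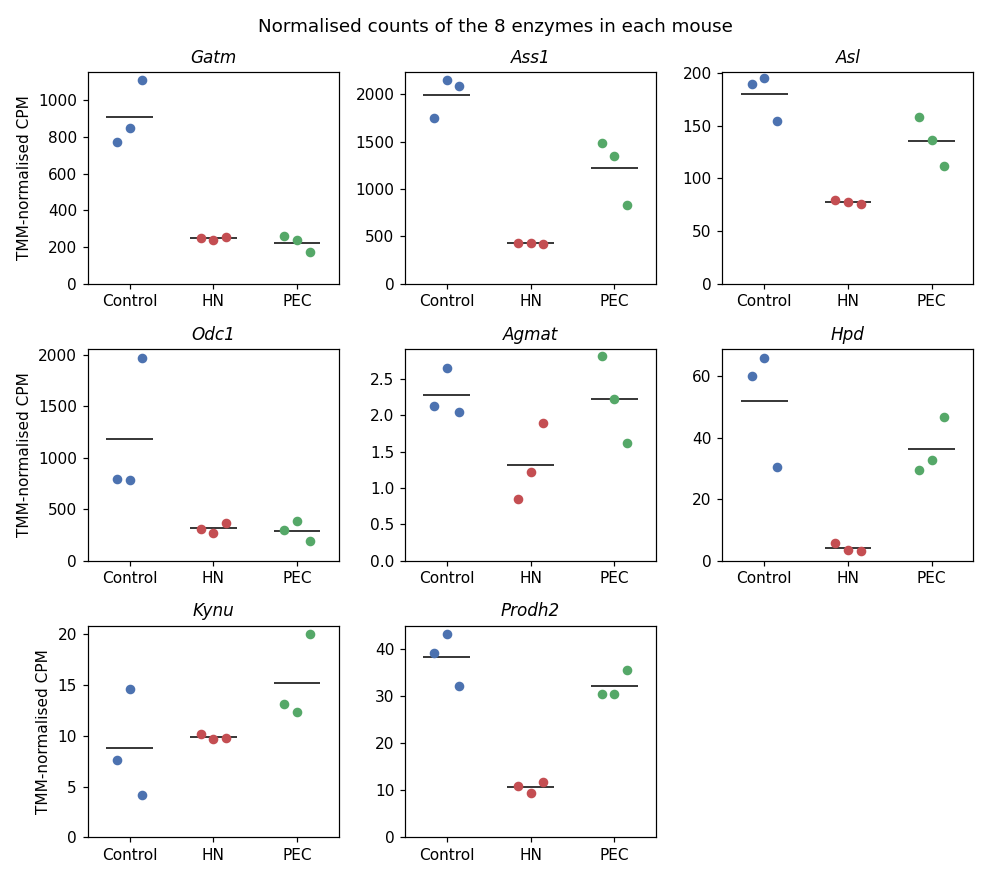
Normalised counts (TMM-scaled CPM, linear axes that start at 0) of the 8 enzymes in each mouse, with a point per mouse and a bar at the mean of each group of 3. Ass1, Asl, Hpd and Prodh2 are low in all HN mice and higher in all PEC mice, whereas Gatm and Odc1 are low in both groups.

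The TMM factors, which scale each library beside its total, were 0.819, 0.832 and 0.778 in the Control libraries, 1.15, 1.20 and 1.22 in the HN libraries and 1.05, 1.02 and 1.05 in the PEC libraries, so the choice of scale bears on every comparison of these groups. With library totals alone the median of all tested genes moved to 0.56 in HN against Control, −0.21 in PEC against HN and 0.40 in PEC against Control, and with FPKM rescaled to a common sum to 0.76, −0.55 and 0.25. The share of calls that were higher was 54.5%, 46.7% and 52.0% with TMM, 85.7%, 29.6% and 76.6% with library totals, 81.9%, 28.6% and 70.7% with limma on log2(FPKM + 1) and 93.6%, 11.5% and 73.0% with the common sum. After removal of a length trend with lengths for nearly all tested genes, the median was −0.20 and the share 41.2% in HN against Control, 0.05 and 54.5% in PEC against HN, where most calls were then higher, and −0.11 and 42.9% in PEC against Control. The changes below are relative to the TMM scale, and under another scale some of the values turned or lost their call.

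The arginine-making pair comes first. Ass1 (ENSMUSG00000076441, chr2:31470207-31520672 of GRCm38) encodes argininosuccinate synthase, which joins citrulline and aspartate. Its normalised counts were 1748, 2149 and 2091 in the Control mice 2, 4 and 5, 428, 430 and 420.0 in the HN mice 4, 8 and 12 and 1480.0, 1347 and 829 in the PEC mice 1, 2 and 3. The 3 HN mice lay close together at the bottom, the PEC mice in between with PEC 3 lowest, and no group overlapped another. Ass1 fell by 2.23 on the log2 scale in HN against Control (SE 0.199, 4.69-fold lower, adjusted p = 2.26e-05 by edgeR with Benjamini-Hochberg adjustment), in 3 of 3 mice. It rose by 1.52 in PEC against HN (SE 0.194, 2.86-fold, edgeR adjusted p = 0.000333), and stayed below Control by −0.71 (SE 0.191, edgeR adjusted p = 0.013). This last call was lost without PEC 3 (−0.48), with library totals (−0.35) and with the limma fits on FPKM (−0.43 with a pseudocount of 1 or of 0.1, −0.40 with the common sum). Of the 50-base words of Ass1 transcripts 38.6% are also in those of the pseudogene Gm5424, whose count was 22.5% of that of Ass1. The handling of reads that match both is not stated, so the level of Ass1 itself is uncertain. The summed normalised count of both was 2475 ± 235 in the Control mice, 542 ± 28.9 in the HN mice and 1441 ± 408 in the PEC mice (SD, n = 3), with log2 ratios of −2.19, 1.41 and −0.78 in the 3 comparisons.

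Asl (ENSMUSG00000025533, chr5:130011258-130025019) encodes argininosuccinate lyase, which splits the product of that enzyme into arginine and fumarate. The normalised counts of Asl were 189.6, 195 and 154 in the Control mice, 79.1, 77.8 and 75.7 in the HN mice and 158, 136 and 112 in the PEC mice. All HN mice were below all others, and PEC 1 lay above Control 5, so that the PEC and Control groups overlapped. Asl fell by 1.21 in HN against Control (SE 0.134, edgeR adjusted p = 8.28e-05), a call that was lost with the common sum of FPKM (−0.27). It rose by 0.80 in PEC against HN (SE 0.133, 1.74-fold, edgeR adjusted p = 0.00139), which was below the fold threshold in the limma fits on FPKM (0.54, 0.57 and, with the common sum, 0.20). Set against Control, the PEC value was −0.41 (SE 0.132, edgeR adjusted p = 0.0298), short of the fold threshold. It was called after removal of length and GC trends (−0.67, or −0.75 with pooled lengths) and was −0.06 with library totals and −0.07 with the common sum.

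Gatm (ENSMUSG00000027199, chr2:122594467-122611303) encodes glycine amidinotransferase, which moves the amidino group of arginine to glycine and so opens creatine synthesis. Normalised counts of Gatm were 771.5, 849.6 and 1108 in the Control mice, 250.1, 236 and 254 in the HN mice and 263, 239.5 and 170.4 in the PEC mice. The 6 mice on adenine and oxonate were all far below the Control mice, and the PEC and HN groups overlapped. Gatm fell by 1.88 in HN against Control (SE 0.180, 3.68-fold lower, edgeR adjusted p = 3.48e-05) and by 2.02 in PEC against Control (SE 0.181, 4.06-fold lower, edgeR adjusted p = 2.99e-05). Between PEC and HN the difference was −0.14 with a 95% interval from −0.53 to 0.25 (edgeR adjusted p = 0.569). It turned to 0.05 without PEC 3 and to 0.09 or 0.05 after removal of length and GC trends, while the common sum of FPKM gave a call of −0.74. No other gene's transcripts share a 50-base word with Gatm.

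The promoters of these enzymes are shown for Ass1, Prodh2 and Gatm, which hold a match to a motif searched below. Ass1 and Prodh2 were called lower in HN against Control and higher in PEC against HN. Gatm was called lower in both groups against Control, as was Ass1. RefSeq promoters (250 bases upstream of the start, GRCm38.p6) were matched by symbol for 6 of the 8 enzymes, and Asl and Kynu have no entry. Both strands were searched for CAAAGTCCA (HNF4), AGGTCA (bound by nuclear receptors), CACGTG (E-box) and TATAAA (a core promoter box). These letters were in 0.384%, 14%, 6.02% and 12.4% of all 32851 promoters of this length. Capitals mark the matches, the matches do not overlap each other, and a match describes the letters only. The promoter of Prodh2 (chr7:30493408-30493657, plus strand) holds AGGTCA on the antisense strand. That of Gatm (chr2:122611278-122611527, minus strand) holds the same match, and that of Ass1 (chr2:31470020-31470269, plus strand) CACGTG. Those of Odc1, Agmat and Hpd hold none of the 4.
Prodh2: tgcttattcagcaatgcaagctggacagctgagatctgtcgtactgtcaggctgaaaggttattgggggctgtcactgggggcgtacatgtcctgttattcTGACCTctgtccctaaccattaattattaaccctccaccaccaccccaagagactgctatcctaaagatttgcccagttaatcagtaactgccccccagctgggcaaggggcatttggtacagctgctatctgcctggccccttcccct
Gatm: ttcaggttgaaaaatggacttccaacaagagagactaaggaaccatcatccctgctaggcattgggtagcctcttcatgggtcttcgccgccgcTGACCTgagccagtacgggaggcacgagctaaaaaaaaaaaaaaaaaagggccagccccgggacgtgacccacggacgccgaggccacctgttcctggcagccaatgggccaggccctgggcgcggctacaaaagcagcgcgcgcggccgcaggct
Ass1: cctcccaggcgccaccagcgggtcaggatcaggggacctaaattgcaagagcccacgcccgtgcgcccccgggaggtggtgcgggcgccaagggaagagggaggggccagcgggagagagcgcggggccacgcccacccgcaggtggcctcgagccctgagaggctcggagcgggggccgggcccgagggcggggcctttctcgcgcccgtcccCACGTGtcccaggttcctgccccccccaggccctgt

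Odc1 (ENSMUSG00000011179, chr12:17544794-17551084) encodes ornithine decarboxylase, which makes putrescine and is strongly driven by androgens in male mouse kidney. Odc1 had normalised counts of 792.6, 784.3 and 1970.0 in the Control mice, 306, 264 and 367 in the HN mice and 296, 388 and 189.8 in the PEC mice. Control 5 stood far above the other Control mice, and all Control mice were above all HN and PEC mice, whose ranges overlapped. Odc1 fell by 1.92 in HN against Control (SE 0.412, 3.79-fold lower, edgeR adjusted p = 0.00611) and by 2.02 in PEC against Control (SE 0.414, edgeR adjusted p = 0.00448). Without Control 5 these values were −1.34 and −1.44, both still called. Between PEC and HN the difference was −0.10 with a 95% interval from −1.02 to 0.82 (edgeR adjusted p = 0.868), and its sign turned without HN 12 (0.02) and without PEC 3 (0.16). The transcripts of Odc1 share 24.3% of their 50-base words with 16 other genes, so its level is uncertain, although the count of the gene with most shared words, Gm7993, was 0.93% of that of Odc1.

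Agmat (ENSMUSG00000040706, chr4:141746672-141759263) is annotated as agmatinase, which would form putrescine from agmatine. Its normalised counts were 2.13, 2.65 and 2.05 in the Control mice, 0.845, 1.22 and 1.90 in the HN mice and 2.82, 2.22 and 1.62 in the PEC mice, from raw counts between 72 and 219. All Control mice were above all HN mice, by little for HN 12, and PEC 3 lay below HN 12. The value of −0.78 in HN against Control did not pass the test (SE 0.337, edgeR adjusted p = 0.0929), nor did 0.75 in PEC against HN (SE 0.337, edgeR adjusted p = 0.108). Without HN 12 both were called, at −1.13 and 1.10. The former was also called after removal of a length trend (−0.94) or of length and GC trends (−1.04) and turned to 0.07 with the common sum of FPKM. The value in PEC against Control was −0.03, with a 95% interval from −0.79 to 0.72, and it turned to 0.32 with library totals, to 0.09 without Control 4 and to 0.17 without PEC 3.

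Hpd (ENSMUSG00000029445, chr5:123171807-123182727) encodes hydroxyphenylpyruvate dioxygenase, an early step of tyrosine breakdown. Per mouse, Hpd had normalised counts of 59.9, 65.8 and 30.3 in the Control mice, 5.84, 3.39 and 2.95 in the HN mice and 29.5, 32.7 and 46.6 in the PEC mice. HN mice were far below all others, and the PEC mice lay among or just under the Control mice, with which they overlapped. Hpd fell by 3.68 in HN against Control (SE 0.389, 12.8-fold lower, edgeR adjusted p = 0.000112) and rose by 3.16 in PEC against HN (SE 0.381, 8.93-fold, edgeR adjusted p = 0.000377), each in 3 of 3 mice. These were the largest changes among the 8 enzymes in both comparisons. In PEC against Control the value of −0.52 did not pass the test (95% interval −1.32 to 0.28, edgeR adjusted p = 0.257), and it was called after removal of length and GC trends (−0.89, or −0.97 with pooled lengths). Hpd lies within Psmd9, a proteasome assembly gene on the opposite strand, and shares no 50-base word with it. Hpd is uncertain, since the strand of counting is not stated. Psmd9 had normalised counts of 30.7 ± 2.69 in the Control mice, 23.1 ± 1.24 in the HN mice and 26.3 ± 1.25 in the PEC mice (SD, n = 3).

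Kynu (ENSMUSG00000026866, chr2:43555329-43682715) encodes kynureninase, a step of tryptophan breakdown that leads from kynurenines towards anthranilates. Kynu had normalised counts of 7.61, 14.6 and 4.16 in the Control mice, 10.2, 9.73 and 9.84 in the HN mice and 13.1, 12.3 and 20.1 in the PEC mice. The Control mice spread widely around the HN mice, and all PEC mice were above all HN mice and overlapped Control. The values of 0.17 in HN against Control (SE 0.392, edgeR adjusted p = 0.770) and 0.61 in PEC against HN (SE 0.392, edgeR adjusted p = 0.252) did not pass the test, and the former turned to −0.16 without Control 5 and was called at 0.92 with the common sum of FPKM. The value of 0.61 was called in a fit of the 2 groups compared (0.62) and after removal of length and GC trends with the first lengths (1.13), which cover 70.4% of the tested genes, but not with pooled lengths (1.12), and the common sum of FPKM left no difference (0.00). The PEC mice differed from Control by 0.79 (SE 0.394, edgeR adjusted p = 0.135), which was called without Control 4 (1.36), with library totals (1.13) and in other fits given with the alternatives.

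Prodh2 (ENSMUSG00000036892, chr7:30493622-30513402) encodes hydroxyproline dehydrogenase, which opens the breakdown of hydroxyproline from collagen. Its normalised counts were 39.1, 43.2 and 32.1 in the Control mice, 10.8, 9.38 and 11.7 in the HN mice and 30.4, 30.5 and 35.5 in the PEC mice. HN mice were low by a wide margin, and PEC 3 lay above Control 5, so that the PEC and Control groups overlapped. Prodh2 fell by 1.84 in HN against Control (SE 0.139, 3.58-fold lower, edgeR adjusted p = 9.01e-06) and rose by 1.59 in PEC against HN (SE 0.138, 3.02-fold, edgeR adjusted p = 5.1e-05). Relative to Control, the PEC mice had −0.25 (95% interval −0.55 to 0.05, edgeR adjusted p = 0.159). Its sign turned with library totals (0.11) and with the limma fits on FPKM (0.07 with a pseudocount of 1 or of 0.1 and 0.10 with the common sum). Together with Ass1, Asl and Hpd it forms the 4 enzymes called lower in HN and higher in PEC against HN. Gatm and Odc1 were called lower in both groups against Control, as was Ass1, but were not called in PEC against HN. The common sum of FPKM kept these calls in HN against Control, except that of Asl, but at a smaller size: −0.93 for Gatm, −1.29 for Ass1, −0.86 for Odc1, −2.54 for Hpd and −0.86 for Prodh2. It gave 0.89 for Ass1, 2.42 for Hpd and 0.96 for Prodh2 in PEC against HN. Whether the enzymes differ from each other in these changes was not tested.

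**Figure D2:**
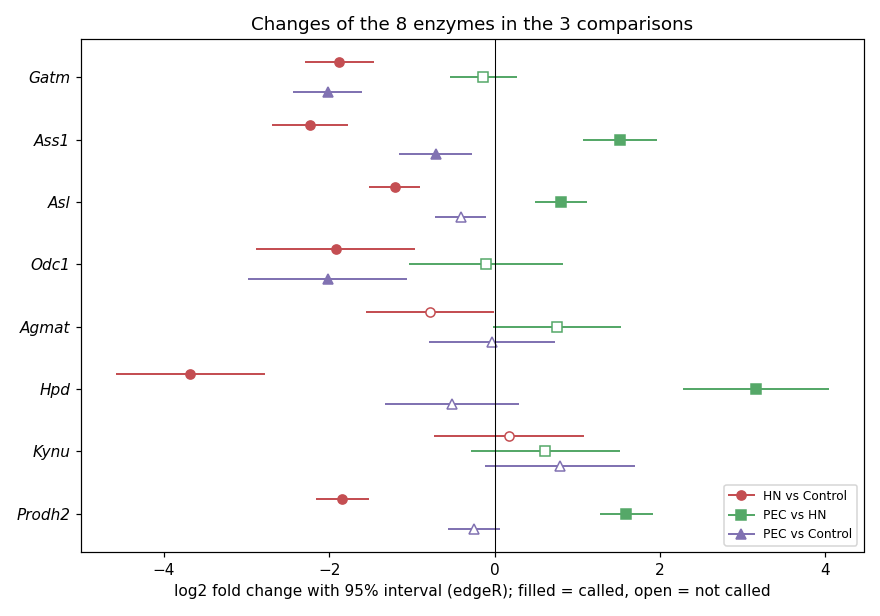
The log2 fold changes of the 8 enzymes by edgeR with 95% intervals in all 3 comparisons, filled where called and open where not. Ass1, Asl, Hpd and Prodh2 have filled points on both sides of 0, and the open values of Gatm, Odc1, Agmat, Kynu and Prodh2 include those that turned under another scaling or with a mouse left out (Agmat to 0.07 in HN against Control and to 0.32 in PEC against Control, Prodh2 to 0.11 in PEC against Control).

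For each enzyme the pair of genes with the most similar pattern was taken by Pearson's r of log2 CPM over the 9 libraries, among 21384 genes, as a description that carries the differences between the groups. They were Ccser2 (0.996) and Ppp2r3a (0.993) for Gatm, Akr1a1 (0.992) and Inmt (0.991) for Ass1, and Marc2 (0.995) and Aldh2 (0.992) for Asl. For Odc1 they were Tlcd2 (0.992) and Cyb5b (0.989) and for Agmat 5033417F24Rik (0.988) and 1700122E12Rik (0.951). Those of Hpd were Iscu (0.991) and Kcnd3 (0.99), those of Kynu Rps18-ps1 (0.961) and Pkp1 (0.952), and those of Prodh2 Bccip (0.998) and Ccdc107 (0.995).

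Lists of 103 genes in 9 pathways around these enzymes were read in the same fit, and 96 of them were tested, 88 besides the 8 enzymes. Of these 88 genes, 56 were called lower and 10 higher in HN against Control, with a median log2 change of −1.25. In PEC against HN 4 were lower and 30 higher, with a median of 0.44, and 47 were lower and 8 higher in PEC against Control, with a median of −0.65. With library totals the counts were 46 and 16, 8 and 22, and 25 and 15 in these comparisons, and with the common sum of FPKM 25 and 22, 24 and 7, and 24 and 11 of 82 genes, where the median in PEC against HN turned to −0.16. With TMM the share of all tested genes called lower and higher was 14.6% and 17.5% in HN against Control. In PEC against HN it was 15.1% and 13.2%, and in PEC against Control 17.3% and 18.7%. Several counts of the lists below lie near these shares. With library totals, 1274 of all 21392 tested genes were called lower and 7645 higher in HN against Control. For that scale the counts were 4576 and 1926 in PEC against HN and 1937 and 6353 in PEC against Control. With the common sum, 633 of 15508 genes were called lower and 9273 higher in HN against Control. These counts were 7063 and 919 in PEC against HN and 1637 and 4433 in PEC against Control. With a mouse left out, the count of the 88 genes lower in PEC against HN reached 7 (without PEC 2). Counts of single lists then moved by at most 2 in this comparison and in HN against Control. The counts and medians of single lists below include the enzymes described above. Single lists differed too with the common sum, here as lower and higher in HN against Control, then in PEC against HN. Arginine had 2 and 3, then 2 and 1 of 8 genes, creatine 1 and 2, then 1 and 0 of 5, and polyamine 1 and 10, then 8 and 0 of 15. Tyrosine had 4 and 0, then 0 and 2 of 6, tryptophan 5 and 1, then 0 and 2 of 10, and proline 5 and 2, then 2 and 1 of 8. Branched-chain had 6 and 1, then 6 and 0 of 18, glycine 6 and 1, then 3 and 4 of 13, and cationic transport 0 and 3, then 3 and 0 of 7. The median of all tested genes with the common sum was 0.76 in HN against Control and −0.55 in PEC against HN, so these counts carry that shift. That fit also differs from the main one in test, input and filter. With library totals and with DESeq2 (5 lower and 32 higher), more of the 88 genes were called higher than lower in PEC against HN. Where edgeR called 0 genes of a list in a direction in HN against Control or PEC against HN, an unadjusted p of at most 0.05 gave 0 as well, except for Tat of the tyrosine list, which DESeq2 also called higher. Tat was barely present, with a mean normalised count of 0 in Control and 0.176 in HN mice (6.71, SE 2.83, adjusted p = 0.0995 by edgeR). DESeq2 called Sms higher in the polyamine list in PEC against HN. Limma with the common sum called up to 6 (of 18 in the branched-chain list, lower in PEC against HN, where 7063 of 15508 genes were lower).

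The arginine and urea cycle list had 10 of 12 genes tested (not Otc and Cps1), with 5 lower and 2 higher in HN against Control and 1 lower and 5 higher in PEC against HN. The medians were −0.94 and 0.70, and with the common sum of FPKM they were −0.34 and, turned, −0.14. Without Ass1 and Asl the medians were −0.58 and 0.45, with 3 lower and 2 higher in HN against Control and 1 lower and 3 higher in PEC against HN. Nos2, the inducible nitric oxide synthase that uses arginine, rose by 2.73 in HN against Control (edgeR adjusted p = 0.00271, 3.57 without Control 5). Its level was low, with a mean normalised count of 0.809 in Control and 5.38 in HN mice. Its value in PEC against HN was −1.08, not called, and was called in 5 alternatives, among them the fit of the 2 groups (−1.07), the common sum (−1.12) and without Control 5 (−1.08). Agxt2, which breaks down methylated arginines, fell by 1.84 and rose by 1.04 in PEC against HN, and Ddah2, which also breaks down methylated arginines, rose by 1.83 and fell by 0.69. The rise of Agxt2 was below the fold threshold with the common sum (0.43). Ddah1, of the same function as Ddah2, fell by 1.39 in HN against Control, below that threshold with the common sum (−0.46). Its rise of 0.60 in PEC against HN lay just above the threshold and was lost with library totals (0.40), the common sum (0.00) and without HN 12 (0.56) or PEC 2 (0.46).

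Of the creatine list 5 of 7 genes were tested (not Ckm and Ckmt2), with 2 lower and 0 higher by edgeR in HN against Control and 0 lower and 1 higher in PEC against HN. The medians were −0.39 and 0.07 and turned to 0.17 and −0.13 with library totals, and the latter was 0.04 without HN 4, 0.12 without HN 12, 0.20 without PEC 1 and 0.24 without PEC 3. Without Gatm the medians were −0.19 and 0.28. Gamt, which methylates the product of Gatm to creatine, fell by 1.22 in HN against Control (edgeR adjusted p = 0.000803), a call lost with the common sum (−0.26). Its value of 0.49 in PEC against HN was not called, was called without PEC 3 (0.67) and turned to −0.11 with the common sum. Ckmt1, the ubiquitous mitochondrial creatine kinase, was the gene called higher in PEC against HN, at 0.93, and fell below the fold threshold with the common sum (0.33).

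The 15 genes of the polyamine list were all tested, with 3 lower and 3 higher in HN against Control and 2 lower and 0 higher by edgeR in PEC against HN, where DESeq2 called 1 higher. Their medians of −0.11 and −0.11 became 0.44 and −0.31 with library totals. The former was −0.06 without Control 2 or HN 12, −0.07 without Control 4, −0.23 without Control 5 and −0.25 without HN 4, and the latter −0.18 without HN 8 and −0.20 without PEC 2. Leaving out Odc1 and Agmat gave −0.08 and −0.16. Aoc1, which oxidises putrescine, rose by 4.49 in HN against Control from a mean normalised count of 3.59 to 80.8 (edgeR adjusted p = 1.7e-05), and Smox, the spermine oxidase, rose by 1.53 (edgeR adjusted p = 1.65e-05). Sms, the spermine synthase, fell by 1.17, below the fold threshold in limma on log2(FPKM + 1) (−0.51) and with the common sum (−0.22). Its value of 0.58 in PEC against HN lay at the fold threshold and was called in 12 alternatives, among them without HN 12 (0.60), without PEC 3 (0.73) and with length and GC trends removed (1.05, or 1.03 with pooled lengths), and turned to −0.01 with the common sum. Azin1, the antizyme inhibitor that protects ornithine decarboxylase from degradation, had −0.22 in HN against Control, which turned to 0.34 with library totals and was called higher with the common sum (0.70), and fell by 1.06 in PEC against HN (edgeR adjusted p = 0.00708), a call lost after removal of length and GC trends (−0.57).

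Breakdown of tyrosine and phenylalanine had 6 of 7 genes lower and 0 higher by edgeR in HN against Control, with a median of −1.53, where DESeq2 called 1 higher. In PEC against HN 0 were lower and 4 higher, with a median of 0.74, and both directions of the medians held with library totals (−0.97 and 0.54) and the common sum (−0.62 and 0.31). Hgd, which opens the ring of homogentisate, fell by 1.94 and rose by 1.05 in PEC against HN. Fah, the last enzyme of the route, fell by 1.58 and rose by 1.69 to a mean normalised count of 314 in PEC against 292 in Control. Pcbd1, which regenerates a pterin cofactor, fell by 1.53 and rose by 0.74, the latter below the fold threshold with library totals (0.54), with a length trend removed (0.39) and with the common sum (0.15). The common sum also took the rise of Hgd (0.46) below that threshold. Gstz1, a later step of the route, fell by 1.49 in HN against Control, just below the fold threshold with the common sum (−0.58). Its value of 0.46 in PEC against HN was not called, was called without HN 8 (0.72) and with a length trend removed (0.64), and turned to −0.10 with the common sum.

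Of the tryptophan and kynurenine list 11 of 12 genes were tested (not Ido1), with 8 lower and 0 higher by edgeR in HN against Control and 0 lower and 6 higher in PEC against HN. The medians were −1.66 and 0.90 and kept their signs with library totals (−1.10 and 0.69) and the common sum (−0.74 and 0.28). Haao, which makes the precursor of quinolinate, fell by 2.68 and rose by 1.71 in PEC against HN (edgeR adjusted p = 3.18e-05). Aadat, a kynurenine aminotransferase, fell by 2.60 and rose by 0.90, the latter lost without HN 4 (0.86), HN 8 (0.76) or PEC 2 (0.58) and in the limma fits on FPKM (0.62, 0.63 and, with the common sum, 0.27). Afmid, the formamidase that yields kynurenine, fell by 2.21 and rose by 2.05 with adjusted p by edgeR of 0.0342 and 0.0472. The fall of Afmid was lost without any of Control 2 (−2.28), Control 4 (−2.25), Control 5 (−2.09), HN 4 (−2.21), HN 8 (−2.13) and HN 12 (−2.29). In all, 10 of 26 alternatives lost this fall, among them library totals (−1.65) and the common sum (−1.18). Its rise was lost without Control 2, 4 or 5 (2.05 each), HN 4 (2.05), HN 8 (1.97), HN 12 (2.12) or PEC 1 (0.73). In all, 17 of 26 alternatives lost this rise, among them library totals (1.86), the fit of the 2 groups (2.06) and the common sum (0.87). Ido2, a dioxygenase of the opening step, fell by 2.12, and its value of 0.72 in PEC against HN was not called, but was called in 7 alternatives, among them DESeq2 (0.72), the fit of the 2 groups (0.72), a length trend removed (0.78) and without Control 5 (0.72).

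The proline, hydroxyproline and ornithine list had 9 of 10 genes tested (not Agxt), with 6 lower and 2 higher in HN against Control and 0 lower by edgeR and 3 higher in PEC against HN. The medians were −1.54 and 0.13, and the latter turned to −0.07 with library totals and was 0.08 without HN 12 and 0.04 without PEC 2. Leaving out Prodh2 gave −1.15 and 0.07. Hoga1, a later step of hydroxyproline breakdown, fell by 1.76 and rose by 0.99 in PEC against HN, and Prodh, which oxidises proline, fell by 1.72 and rose by 1.01. These rises were not called with the common sum (0.39 and 0.42). Of the enzymes that make proline from glutamate, Pycr1 rose by 2.35 to a mean normalised count of 1.05 and Aldh18a1 by 2.10 to 18.6 in HN against Control (edgeR adjusted p = 0.00106 and 2.23e-06), with values of −0.70 and −0.40 in PEC against HN that were not called. The latter was called lower with library totals (−0.59), limma on log2(FPKM + 0.1) (−0.60) and the common sum (−0.89). Pycr3 in contrast fell by 0.76 in HN against Control and was not called in PEC against HN.

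All 18 genes of branched-chain amino acid breakdown were tested, with 16 lower and 0 higher by edgeR in HN against Control and a median of −1.35. In PEC against HN 0 were lower and 6 higher, against 3 and 3 with library totals, with a median of 0.36 that turned to −0.22 with the common sum and was 0.22 without PEC 2. Aldh6a1, of valine breakdown, fell by 2.16 and Mccc1, of leucine breakdown, by 1.72, and their values in PEC against HN were 0.23 and 0.28, not called, and turned with the common sum (−0.37 and −0.29), while that of Mccc1 was called higher with a length trend removed (0.76, or 0.75 with pooled lengths) and with length and GC trends removed (0.74 or 0.71). Ivd, of leucine breakdown, fell by 1.96 and rose by 1.11 in PEC against HN, and Hibadh, of valine breakdown, fell by 1.73 and rose by 1.04, and the common sum took both rises below the fold threshold (0.52 and 0.45).

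Of the glycine, serine and one-carbon list 14 of 15 genes were tested (not Sds), with 12 lower and 0 higher by edgeR in HN against Control, 0 lower and 8 higher in PEC against HN. The medians were −1.51 and 0.77 and kept their signs with library totals (−0.95 and 0.57) and the common sum (−0.51 and 0.09). Gldc, of glycine cleavage, fell by 2.57, and its value in PEC against HN was 0.48, not called, and −0.10 with the common sum. Dmgdh, which demethylates dimethylglycine, fell by 2.48 and rose by 1.24, and Bhmt2, a methyltransferase that forms methionine, fell by 2.23 and rose by 1.24. Bhmt, which uses betaine in the same reaction, fell by 3.39 and rose by 3.45 (2.87 without HN 12), where the mean normalised count was 2.13 for Control, 0.201 for HN and 2.22 for PEC mice.

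The 7 genes of the cationic amino acid transport list were all tested, with 4 lower and 3 higher in HN against Control and 1 lower and 1 higher in PEC against HN. The medians were −0.68 and 0.16 and turned to 0.24 and −0.43 with the common sum, and the latter was 0.02 without PEC 2 and 0.26 without PEC 3. Slc3a1 and Slc7a9, the subunits of the brush border carrier that takes up cystine and arginine, fell by 1.41 and 1.28 in HN against Control, below the fold threshold with the common sum (−0.48 and −0.35). Slc7a9 rose by 0.71 in PEC against HN, below the threshold with library totals (0.51), with length and GC trends removed (0.54) and with the common sum (0.12), and Slc3a1 had 0.16, which turned to −0.04 with library totals. Slc7a12, counted in this list although its substrates were not examined here, rose by 2.89 in HN against Control (3.84 without Control 4). Slc7a2, a carrier of arginine, rose by 1.40 in this comparison. Their values in PEC against HN were −1.47 and −0.15, not called, that of Slc7a12 was called in 10 alternatives, among them DESeq2, the fit of the 2 groups (−1.46), the common sum (−1.99) and without Control 4 or Control 5 (−1.47 each), and that of Slc7a2 turned to 0.25 with a length trend removed and was called lower with the common sum (−0.64).

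**Figure D3:**
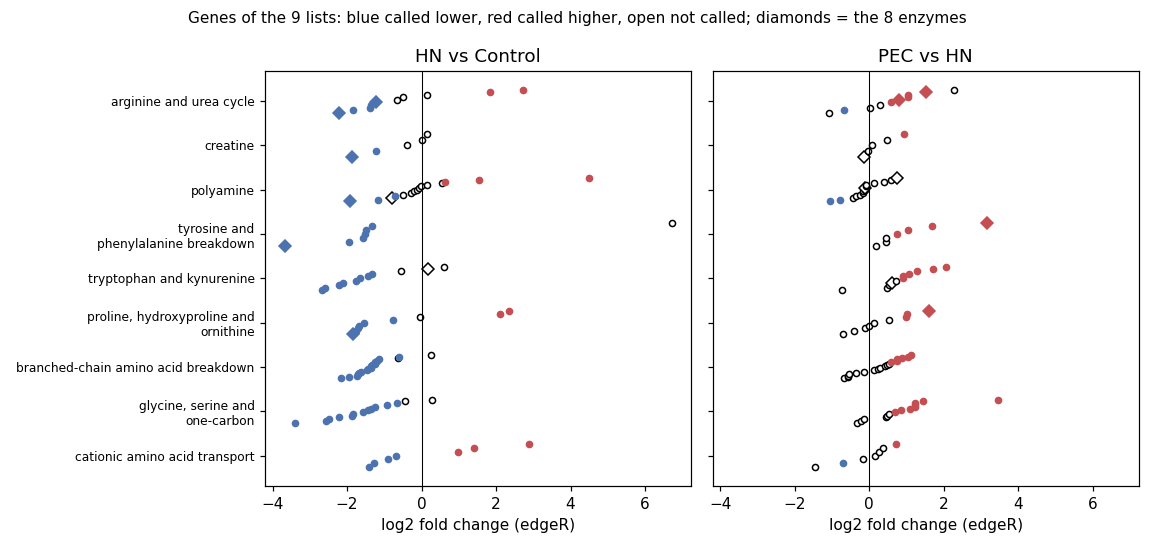
The log2 fold changes by edgeR of the tested genes of the 9 lists in HN against Control and in PEC against HN, blue where called lower, red where called higher and open where not called, with diamonds for the 8 enzymes. Most genes of tyrosine, tryptophan, branched-chain and glycine breakdown lie left of 0 in HN. With the common sum of FPKM the creatine, polyamine and cationic transport medians turn to 0.53, 0.80 and 0.24 in HN against Control. In PEC against HN they are −0.51, −0.69 and −0.43, where the polyamine median was negative already. The arginine, branched-chain and proline medians also turn there, to −0.14, −0.22 and −0.26. With that sum the median of all tested genes was 0.76 in HN against Control and −0.55 in PEC against HN, and the turned medians carry that shift.

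The tissue label was read against marker lists, summed as FPKM in each library. The 9 proximal tubule markers were all tested, with Slc27a2 the most abundant, and their sum was 2218, 2237 and 2208 in the Control libraries, 782.1, 781 and 813 in the HN libraries and 1435, 1698 and 1169 in the PEC libraries. Of these 9, 8 were called lower in HN against Control and 8 higher in PEC against HN, and Hnf4a, a transcription factor of this segment, fell by 1.56 and rose by 0.61. The exception was Slc5a12, with −1.13 in HN against Control and −1.08 in PEC against HN, neither called. All 9 were called lower in PEC against Control. The HN libraries had the lowest sums and the PEC libraries lay in between, and the part of these markers in the result was not tested.

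The 6 markers of injured tubule, led by Spp1, summed to 394, 434 and 358 in the Control libraries, 11940, 10750 and 10920 in the HN libraries and 8157, 8347 and 6838 in the PEC libraries, with 6 of 6 higher in HN against Control and 2 of 6 lower in PEC against HN. The 7 macrophage and myeloid markers, led by Lyz2, summed to 49.2, 55.6 and 47.6 in the Control libraries, 1129, 1187 and 1025 in the HN libraries and 397, 419 and 546 in the PEC libraries, with 7 of 7 higher in HN against Control and 6 of 7 lower in PEC against HN. Both lists were high in the HN mice, where Nos2 was called higher than in Control at a low mean normalised count of 5.38. The part of these lists in the result was not tested. The 6 fibroblast and pericyte markers, led by Col3a1, had 37.2, 36.4 and 32.5 in the Control libraries, 280.6, 291 and 270.4 in the HN libraries and 147.5, 161.5 and 133 in the PEC libraries.

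The 7 male-biased or androgen-responsive genes, led by Kap, summed to 26620, 25690 and 39660 in the Control libraries, 3185, 5673 and 4490 in the HN libraries and 13340, 19140 and 12240 in the PEC libraries. Control 5 was highest for this sum and for Odc1, and 6 of the 7 genes were called lower in HN against Control. In PEC against HN 4 of the 7 were called higher and 1 (Gusb, not called in HN against Control) lower, while Odc1 was not called, and the part of these genes in the result was not tested. The 6 hepatocyte markers, led by Fga, summed to 33.6, 34.5 and 22.5 in the Control libraries, 105, 116 and 68.4 in the HN libraries and 78.2, 100.7 and 80.4 in the PEC libraries. As normalised counts the sums were 309 ± 44.5, 364 ± 80.8 and 297 ± 42.0 (SD, n = 3). Hpd is also a liver enzyme, and these markers did not move together: Alb fell by 2.31 in HN against Control and rose by 3.09 in PEC against HN, Fga and Fgb rose by 1.92 and 4.16 in HN, and Apob fell by 1.20 and by 2.71. Their part in the result was not tested.

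The 7 markers of thick limb, distal tubule and collecting duct, led by Umod, summed to 1432, 1604 and 1343 in the Control libraries, 1789, 1575 and 1787 in the HN libraries and 1543, 1594 and 1510.0 in the PEC libraries, ranges that overlap between the groups. Umod makes up most of these sums, and by edgeR 4 of the 7 were called lower in HN against Control (Slc12a1 by −1.40 and Aqp2 by −1.48 among them) and 2 higher in PEC against HN. As normalised counts their sum was 6563 ± 314 in the Control mice, 5071 ± 400 in the HN mice and 5398 ± 264 in the PEC mice (SD, n = 3). The 7 lymphocyte markers, led by Jchain, summed to 2.31, 4.32 and 5.61 in the Control libraries, 18.4, 36.8 and 34.3 in the HN libraries and 5.36, 6.78 and 5.43 in the PEC libraries, and the 4 endothelial markers, led by Emcn, to 31.3, 35.2 and 35.1, to 42.2, 44.4 and 42.7 and to 31.2, 34.9 and 47.8. As normalised counts the endothelial sum went the other way, at 288 ± 22.1 in the Control mice, 232 ± 7.48 in the HN mice and 235 ± 55.5 in the PEC mice (SD, n = 3), and Kdr was called lower in HN against Control. Jchain makes up most of the lymphocyte sum in the HN libraries and fell by 3.57 in PEC against HN. Of the 7 lymphocyte markers, 6 were called higher in HN against Control and 2 lower in PEC against HN. In PEC against Control 4 were called higher, which were Cd3e, Cd3g, Cd4 and Cd8a (1.85, 2.48, 2.63 and 1.20). No marker of any list was at 0 in all 9 libraries. Markers of kidney tubule were abundant in every library, and the parts of these other lists in the result were not tested.

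**Figure D4:**
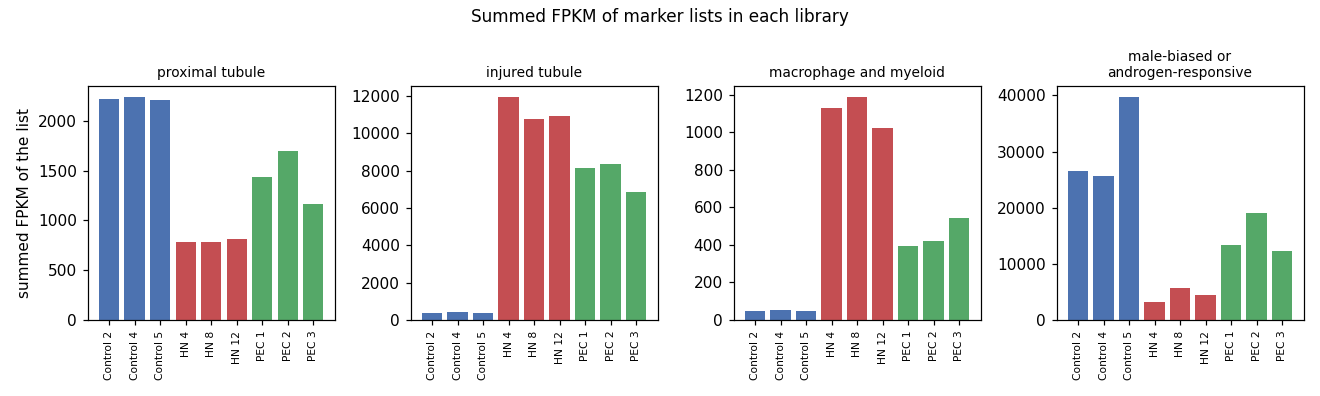
Summed FPKM of 4 marker lists in each of the 9 libraries (linear axes that start at 0, a bar per library, no error bars). The proximal tubule sum is lowest in the HN libraries (781 to 813) and the injured tubule and myeloid sums are highest there, and Control 5 has the highest male-biased sum (39660).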

How the data were processed

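RNA-seq of mouse kidney was read from the table that the authors deposited. Its counts are raw counts per gene as deposited, and its FPKM values were scaled by the authors by gene length and by each library's total, without a common sum. The processing notes name the aligner Bowtie 0.12.2 and the builds mm8 and mm9, whereas the coordinates are those of GRCm38. The counting program, strand setting and handling of multi-mapped reads are not stated.

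Counts were tested in edgeR 4.0.16 (R 4.3.3, quasi-likelihood test, TMM factors, filterByExpr) in 1 fit over 9 libraries, with Benjamini-Hochberg adjustment over 21392 genes. Steps were tested on simulated counts. Total counts of 57714111 to 81069646 limit precision only for the rare transcripts. DESeq2 1.42.0, limma 3.58.1, other scalings, filters and thresholds, and each mouse left out in turn were alternatives. The GC trend and the lengths pooled over libraries were added after the data were seen, the pooled lengths also after results with the first lengths had been seen.

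The members and lists were chosen with earlier results of these data known. The named genes are the 8 enzymes, up to 4 further called genes per list with the largest change in HN against Control or PEC against HN, and the 2 genes most like each enzyme. Tat, Pycr3 and single markers were named besides, after their values had been seen. Promoters are from RefSeq, and shared 50-base words are from GENCODE M21 transcripts. Of the planned items, 1 enzyme, 3 genes of the lists, 1 marker and 1 motif are not reported here, and every count of the enzymes, lists and markers leaves them out.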

Additional observations from a re-analysis of the deposited data

How the results depend on the processing

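Over 26 alternatives for each of 24 results (8 log2 changes in each of 3 comparisons), 571 values kept their direction and their side of the threshold, 24 passed it newly, 11 no longer passed it and 18 changed sign. Ass1, Hpd and Prodh2 in HN against Control and in PEC against HN, and Gatm and Odc1 in HN against Control and in PEC against Control, stayed called in all 26. The cause was not tested for any value below.

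The number of enzymes called higher in HN against Control was 1 with FPKM rescaled to a common sum, as was the number called lower in PEC against HN. Of all 15508 genes in that fit, 9273 were called higher in HN against Control and 7063 lower in PEC against HN. In PEC against Control 5 were called lower after removal of length and GC trends, with either set of lengths. Of all genes in those fits, 3328 of 15067 were called lower with the first lengths and 4665 of 21164 with pooled lengths. Called higher in PEC against Control was 1 with library totals and with limma on log2(FPKM + 1), log2(FPKM + 0.1) or the common sum. The count was also 1 after removal of the length trend with the first lengths and of length and GC trends with either set. It was 0 to 1 with a mouse left out, 1 without Control 4. Of all genes, 6353 of 21392 were called higher with library totals. The limma fits on FPKM called 3581, 4685 and 4433 of 15508 higher, in the order given. After removal of the trends, 2881 of 15078, 2703 of 15067 and 3380 of 21164 were called higher. Without Control 4 it was 3680 of 22315.

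Signs changed as follows. In HN against Control Agmat was 0.066 with the common sum, and Kynu ranged from −0.16 to 0.75 with a mouse left out. In PEC against HN Gatm was 0.087 after removal of length and GC trends and 0.046 with pooled lengths, and −0.27 to 0.050 (without PEC 3) with a mouse left out, and Odc1 −0.37 to 0.16. In PEC against Control Agmat was 0.32 with library totals, 0.0089 with at least 1 CPM in 3 libraries, 0.15 and 0.24 with limma and a pseudocount of 1 and 0.1, 0.22 with the common sum, and −0.24 to 0.17 with a mouse left out. Prodh2 there was 0.11, 0.068, 0.074 and 0.099 with library totals, the limma fits with both pseudocounts and the common sum.

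The first gene lengths covered 70.5% of the tested genes (70.4% with GC), under 80%, so the trends fitted with them are void as a check over all genes. Pooled lengths covered 99.1% and 98.9%. No paired analysis was possible because each library came from a different mouse. By the study's text, mice were placed into the groups at random. At a depth of 57714111 or more, Agmat had as few as 72 counts in a library, and differences near its spread were not detectable.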

Other observations

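Ratios of FPKM between enzymes were computed for 4 pairs that were chosen after their values were seen, and they carry no test. The ratio of Ass1 to Gatm was 2.82, 3.14 and 2.35 in the Control mice 2, 4 and 5, 2.13, 2.26 and 2.05 in the HN mice 4, 8 and 12 and 7.00, 6.99 and 6.05 in the PEC mice 1, 2 and 3. All PEC mice were above all other mice, and all HN mice below all Control mice. The ratio of Ass1 to Odc1 was 2.82 ± 1.21 (SD, n = 3) in the Control mice, 1.96 ± 0.339 in the HN mice and 6.04 ± 1.08 in the PEC mice. The ratio of Ass1 to Asl was 22.6 ± 4.37 in the Control mice, 11 ± 0.147 in the HN mice and 17.8 ± 2.60 in the PEC mice. The ratio of Hpd to Gatm was 0.0857 ± 0.0408, 0.0231 ± 0.00869 and 0.245 ± 0.122 in the same order. Ass1 shares words with Gm5424, Odc1 with 16 other genes, and Hpd lies within Psmd9 on the opposite strand, so these ratios carry the same uncertainty.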
